A study of Danio rerio with 12 samples.

Results

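*vox*, *ved*, *szl* and *bambia* are 4 zebrafish genes of the bone morphogenetic protein (BMP) pathway: a pair of ventral homeobox factors that act downstream of BMP, and a secreted and a membrane-bound regulator of the signal. They were taken by gene symbol from the probe annotation of the array. Each had 1 probe set, so 4 of 15502 probe sets other than controls are described, and all 4 passed the filter on low signals that left 10851 for testing. The 12 arrays came from untreated wild-type embryos of the AB line, raised at 23 °C to the 12-somite stage and cut by hand at 6 places from the tailbud to the somites, the blocks into which paraxial mesoderm divides. Position 1 was the center of the tailbud, position 2 its flank (the left side in replicate 1 and the right side in replicate 2), positions 3 to 5 the presomitic mesoderm (PSM) in its posterior, central and anterior stretch, and position 6 the last 2 somites formed. Each position had 2 arrays, called biological replicates in the labels, and the sources used here do not say how many embryos went into each.

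BMP ligands bind pairs of serine-threonine kinase receptors, which phosphorylate SMAD proteins that enter the nucleus and switch genes on. In the early fish embryo the signal is highest on the ventral side, where it sets ventral and posterior fates, and it stays active in the tailbud while the tail grows. *vox* and *ved*, with the related gene *vent*, encode homeodomain repressors that keep genes of the dorsal organizer off. *szl* encodes Sizzled, a secreted protein that blocks the Tolloid-type proteases and so protects the BMP antagonist Chordin. *bambia* encodes a membrane protein that resembles a type I receptor but lacks the kinase domain. In the embryo *szl* and *bambia* are themselves switched on by BMP.

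Values are MAS5 signals, an intensity per probe set on a linear scale that the submitters scaled to the same trimmed mean on every array. The table holds no detection calls, so a low signal is given as a number and is not called absent, and no signal was listed at 0. Array medians lay between 27.3 and 68.4. Replicates correlated across probe sets with r from 0.831 at position 2 to 0.968 at position 6. Marker genes followed the labelled positions in part. By limma 4 of 5 tailbud progenitor genes fell along the axis and 4 of 5 tested somite and muscle genes rose. The progenitor gene *fgf8a* was low on the right flank (12.1) and high again at position 6 (405.3 and 309.6), and the muscle factor gene *myf5* was highest at position 3 (807 and 529.7). The summed signal of 5 tailbud progenitor genes was 8478.7 to 12380.7 at positions 1 to 3 and 501 to 736 at positions 5 and 6. The somite factor *tcf15* was at most 10.8 at position 1 and measured 1235.8 and 1209.7 at position 6. Tests were made with limma on log2(signal + 12.2), and a call is a Benjamini-Hochberg adjusted p under 0.05 over all 10851 probe sets. "Rose" and "fell" are used of called changes. Folds on this scale understate changes of low signals.

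All 4 genes were high in the tailbud and low in the somites. On each of them the lowest of the 4 tailbud arrays lay above the highest of the 8 arrays from positions 3 to 6. That was so for 1.18% of all tested probe sets. The members had been chosen with their fall along the axis known, so their separation and their trend describe them and are not independent evidence.

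*vox* was highest in the tailbud and lower at each position toward the somites. Its signals in replicates 1 and 2 were 2138.3 and 1375.9 at position 1, 1734.3 and 1485 at position 2, 886.9 and 795.9 at position 3, 340.3 and 428.8 at position 4, 137.6 and 200.2 at position 5, and 53.2 and 34.7 at position 6. The 2 tailbud positions overlapped, and from there each position lay wholly below the one behind it. The position means were 1757 ± 539 (SD, n = 2) at position 1 and 44.0 ± 13.1 at position 6. By limma, the mean of the tailbud pieces exceeded that of positions 3 to 6 by 2.80 ± 0.17 on the log2 scale (SE), or 6.96-fold (adjusted p = 8.49e-10).

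*ved*, the other homeobox gene, was low from the center of the PSM onward. Its signals were 1262.1 and 445.8 at position 1, 697.7 and 717.6 at position 2, 168.9 and 208 at position 3, 19.5 and 11.4 at position 4, 40.5 and 2.2 at position 5, and 11.1 and 2 at position 6. The arrays of positions 1 and 2 overlapped, those of position 3 lay between the tailbud and the rest, and positions 4 and 5 overlapped. The mean was 708 ± 14.1 in the flank, 188 ± 27.6 in the posterior PSM and 15.4 ± 5.73 in the center PSM (SD, n = 2). The tailbud pieces exceeded positions 3 to 6 by 4.19 ± 0.35 (limma, adjusted p = 1.08e-07).

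*szl* was high in both tailbud pieces and low everywhere else. It measured 1135 and 158 at position 1, 916.1 and 872.9 at position 2, 49.5 and 5.5 at position 3, 64.5 and 34.4 at position 4, 2 and 2.9 at position 5, and 4.8 and 3.1 at position 6. The flank arrays were close to each other, whereas the 2 arrays from the center of the tailbud differed 7.18-fold. The tailbud pieces exceeded positions 3 to 6 by 4.60 ± 0.44 (24.2-fold by limma, adjusted p = 7.9e-07). Among all tested probe sets this was the largest excess in the tailbud, and *ved* had the 3rd largest, *vox* the 15th and *bambia* the 21st. The first rank of *szl* rested on replicate 1 of position 1. Without that array its excess was 3.91, below that of the homeobox gene *eve1*, which was 4.33 or more whichever array was left out.

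*bambia* kept a moderate signal in the posterior and center PSM. It measured 1149.9 and 601.2 at position 1, 424.6 and 994.8 at position 2, 192.3 and 147.4 at position 3, 213.4 and 218.7 at position 4, 73.1 and 48.9 at position 5, and 82.9 and 34.6 at position 6. Both tailbud positions overlapped at the top, the posterior and center PSM lay between, and the anterior PSM and somites overlapped at the bottom. The tailbud pieces exceeded positions 3 to 6 by 2.66 ± 0.26 (6.30-fold by limma, adjusted p = 7.64e-07). All 4 genes were called higher in the tailbud pieces, where 3.73% of all tested probe sets were.

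**Figure D1:**
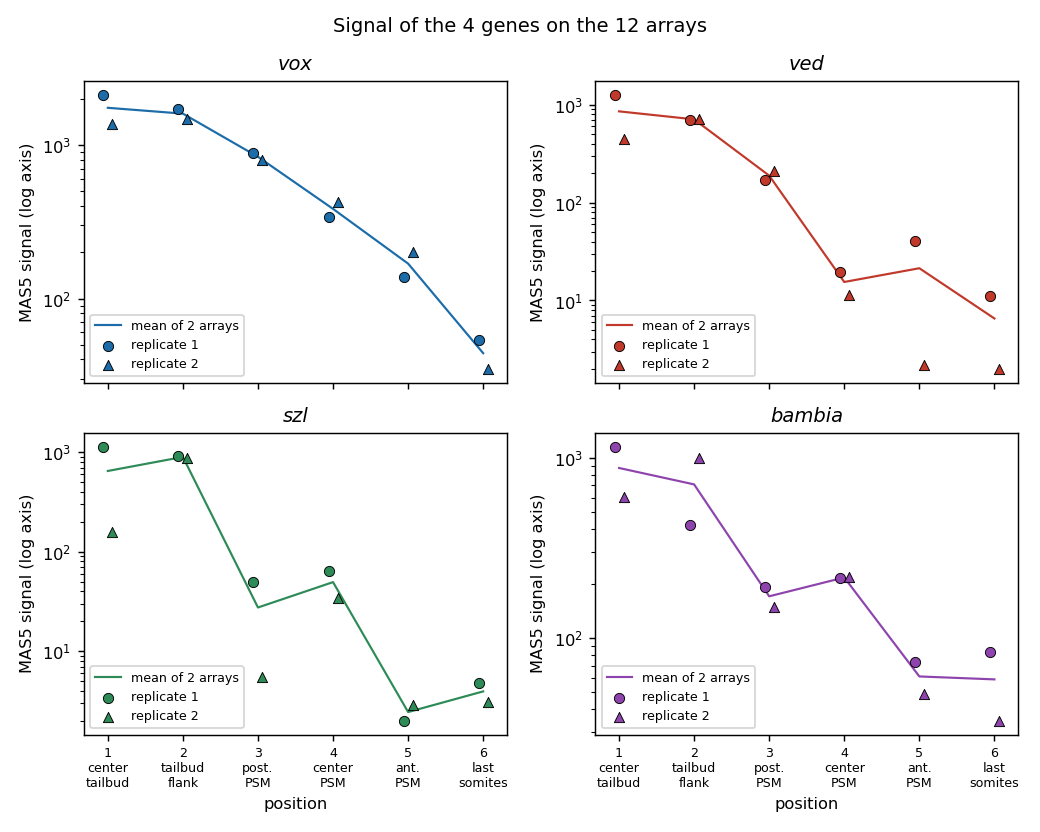
MAS5 signal (log axis) of the 4 genes against position, with circles for replicate 1, triangles for replicate 2 and a line through the mean of the 2 arrays. In each panel the 4 tailbud arrays lie above the 8 others, and the arrays of *szl* at position 1 lie far apart (1135 and 158).

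Over the whole axis, the fitted linear change from position 1 to position 6 was -6.28 ± 0.48 for *ved* (adjusted p = 2.13e-08), -5.84 ± 0.61 for *szl* (adjusted p = 1.37e-06), -5.07 ± 0.23 for *vox* (adjusted p = 8.13e-12) and -3.94 ± 0.35 for *bambia* (adjusted p = 1.52e-07), all by limma. Ranked from the largest fall, they stood at 5, 6, 11 and 30 of 10851 probe sets. All 4 fell, where 6.12% of all tested probe sets did, and the median change of all probe sets was -0.13. Set directly against the center of the tailbud, the somites were lower by 4.96 ± 0.27 for *vox*, a difference of -4.96 with a 95% interval of -5.53 to -4.40 (limma, adjusted p = 5.08e-10). The same difference was -5.39 ± 0.57 for *ved*, -4.78 ± 0.73 for *szl* and -3.66 ± 0.42 for *bambia* (adjusted p = 2.34e-06, 0.000175 and 5.82e-06 by limma), where 4.56% of all probe sets were called lower. An F test over the 6 positions called all 4 genes (adjusted p from 6.44e-10 for *vox* to 1.64e-05 for *szl*), against 11.2% of all probe sets.

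The largest step by estimate lay from position 2 to 3 for *szl* and *bambia*, from 3 to 4 for *ved* and from 5 to 6 for *vox*. Whether the genes differ in this was not tested. Between the center and the flank of the tailbud no member was called, where 1.53% of all probe sets (166) were. The numbers called at single steps moved when 1 array was left out: 84 to 251 at this step, 2 to 91 from position 2 to 3 (14 with all arrays), 9 to 35 from position 3 to 4 (24) and 33 to 195 from position 5 to 6 (131). The differences there were -0.10 (95% interval -0.66 to 0.47) for *vox*, -0.09 (-1.29 to 1.11) for *ved*, 1.04 (-0.48 to 2.56) for *szl* and -0.35 (-1.22 to 0.53) for *bambia*. These intervals leave room for changes of more than 2-fold in *ved*, *szl* and *bambia*.

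From tailbud flank to posterior PSM *szl* fell by 4.78 on the log2 scale (SE 0.73, 27.4-fold by limma, adjusted p = 0.0101). With all arrays 2 of 10851 probe sets (0.0184%) were called lower at this step. The other was zgc:66433, a placeholder name seen after the values were known, with a difference of -1.90 (adjusted p = 0.0139). The *szl* call rested on the low second array of position 3: without it the difference was -3.88 (adjusted p = 0.198). *bambia* had its largest step in the same place, -1.88 with a 95% interval of -2.75 to -1, which was not called (adjusted p = 0.116). Without the left flank array, the lower of its 2, the difference was -2.48, and without both second tailbud arrays it was -1.27. This step of *bambia* was called in 1 of 22 alternative fits. From the center to the anterior PSM *bambia* had a step of similar size, -1.66 (-2.54 to -0.78), and *szl* one of -2.03 (-3.55 to -0.51). Neither was called (limma, adjusted p = 0.134 and 0.479).

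From the posterior to the center PSM *ved* fell by 2.87 (SE 0.57, 7.30-fold by limma, adjusted p = 0.0404), where 0.111% of all probe sets were called lower. This call was near the threshold. It was lost without either array of position 2, 3 or 4, with differences of -3.08 to -2.66 and adjusted p of 0.0508 to 0.421. At the same step the differences of *szl* and *bambia* were above 0, at 0.86 (-0.67 to 2.38) and 0.34 (-0.54 to 1.21), and neither was called.

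From the anterior PSM to the somites *vox* fell by 1.69 (SE 0.27, 3.22-fold by limma, adjusted p = 0.00274), where 0.507% of all probe sets were called lower. Without the second array of position 5 the difference was -1.44 (adjusted p = 0.078), and the call was lost. The 3 steps of *vox* behind it, at -0.92, -1.11 and -1.14, were not called one by one (adjusted p of 0.105 to 0.278). The other 3 genes had values between -0.60 and 0.14 at this last step, none of them called. The fall in log2 value from the tailbud mean to the somites was also expressed as a share at each PSM position. At the posterior PSM it was 80.5% for *szl*, 58.8% for *bambia*, 35.4% for *ved* and 19.8% for *vox*. The share of *szl* there rests on arrays at 49.5 and 5.5. At position 6 the signals of *szl* (4.8 and 3.1) and *ved* (11.1 and 2) lay below the added offset of 12.2. All shares of these genes therefore depend on that offset. At the center PSM the order changed, with 89% for *ved*, 64.3% for *szl*, 49.1% for *bambia* and 42.4% for *vox*. At the anterior PSM the shares were 102.6% for *szl*, 96.7% for *bambia*, 88.8% for *ved* and 65.7% for *vox*.

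**Figure D2:**
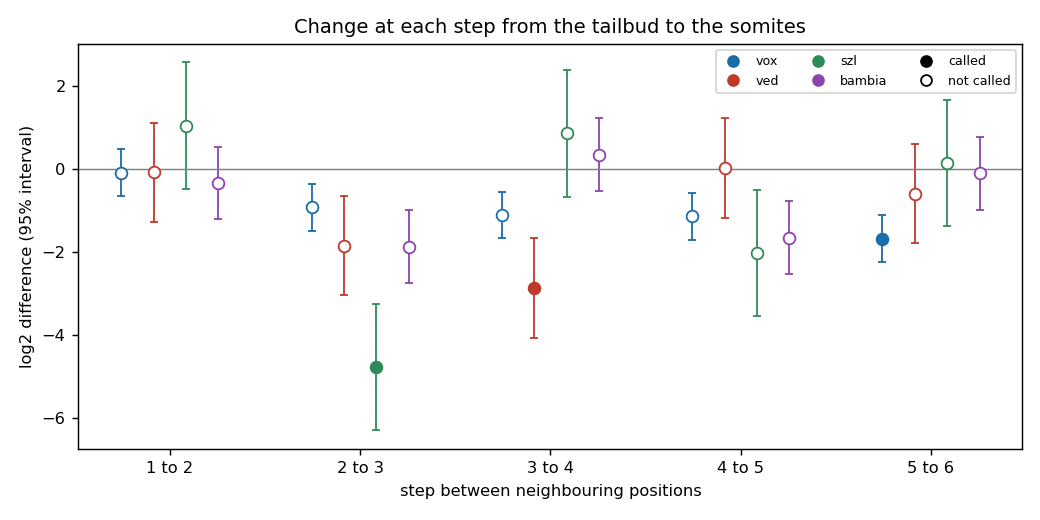
Log2 difference at each step between neighbouring positions for the 4 genes, with 95% intervals as bars and filled points for called differences. The called falls are *szl* at step 2 to 3 (-4.78), *ved* at step 3 to 4 (-2.87) and *vox* at step 5 to 6 (-1.69).

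Ordered by level, *vox* ran from position 1 to position 6 without exception, and only the last pair of neighbours in that order differed by limma. For *ved* the order was 1, 2, 3, 5, 4, 6, and position 3 exceeded position 5 (difference of -2.86, adjusted p = 0.00994), while the other neighbours in the order were not called. For *szl* it was 2, 1, 4, 3, 6, 5, and the called neighbours were positions 1 and 4 (-2.89, adjusted p = 0.0243). For *bambia* it was 1, 2, 4, 3, 5, 6, with no neighbouring pair called (adjusted p of 0.115 to 0.95). Across wider gaps *bambia* was lower at position 3 than at position 1 (-2.22 by limma, adjusted p = 0.00623) and lower at position 6 than at position 4 (-1.77, adjusted p = 0.0187). Over the 12 arrays the genes' log2 values correlated pairwise with Pearson's r from 0.814 (*vox* and *szl*) to 0.924 (*szl* and *bambia*). These points share the arrays and the common fall along the axis, and the values are given as a description.

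In the center of the tailbud replicate 1 was higher than replicate 2 for all 4 genes, by 1.55-fold for *vox*, 1.91-fold for *bambia*, 2.83-fold for *ved* and 7.18-fold for *szl*. Gaps between replicates were not particular to the center: *bambia* differed 2.34-fold at position 2 and 2.40-fold at position 6, *szl* 9-fold at position 3 and *ved* 18.4-fold at position 5, the last at low signals. Of 9 notochord and floor plate genes on the array, 5 were higher on replicate 2 of the center and 4 lower. Among the 5, *noto*, a notochord homeobox gene that Vox and Ved can repress, measured 53.3 and 1281.8, *shha*, a ligand made by the notochord and floor plate, 4.6 and 209.9, and *foxa2*, a factor of the floor plate, 3.9 and 260.8, whereas *foxa3* measured 7.9 and 7.3 and *ntn1a* 38.7 and 36.7. The summed signal of the 9 genes was 152.1 on replicate 1 and 1863.2 on replicate 2, and on the 10 other arrays it ran from 57.6 to 539.3. That of 11 neural tube genes was 598.8 and 2518.5, with 8 higher on replicate 2 and 3 lower. On the 10 other arrays the neural sum ran from 127.6 to 2208, the latter on replicate 2 of position 3. In the center *sox19a* measured 70.4 and 846.7, while *sox2* measured 371.2 and 341. The part of either tissue in the values of the 4 genes was not tested.

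Without replicate 2 of position 1 the somite difference was larger, -6.15 for *szl* (adjusted p = 1.16e-05) and -6.13 for *ved* (adjusted p = 4.12e-06). Without replicate 1 it was smaller, -3.40 for *szl* (adjusted p = 0.0109) and -4.65 for *ved* (adjusted p = 0.000217). The excess of *szl* in the tailbud pieces was 5.29 and 3.91 in the same order, and its fitted trend -6.82 and -4.86. With either array left out limma called the fall of *szl* and *ved*, and its size depended on the array.

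The flank arrays differed in other tissues. The left side was replicate 1 and the right side replicate 2, so side and replicate cannot be told apart. The epidermal keratin gene *krt4* measured 384.1 on the left and 1350.5 on the right, and the embryonic globin gene *hbae3* 17.6 and 676.6. The summed signal of 13 blood, endothelium and intermediate mesoderm genes was 489.3 and 3143.8, with 10 of the 13 higher on the right, and that of 10 epidermal genes 3924.5 and 7431.7, with 7 higher on the right. *vox*, *ved* and *szl* differed little between these arrays, whereas *bambia* was 424.6 on the left and 994.8 on the right. Signal of these tissues was not particular to the flank. The blood, endothelium and intermediate mesoderm sum was 566.3 and 1184.8 at position 3, and 2914.3 and 6724 at position 4. A large part of the sum at position 4 came from the globin genes *hbae3* (712.4 and 2846.7) and *hbbe3* (700.6 and 1644.4). The epidermal sum was 6546.5 and 4084.4 at position 3, and 6521.4 and 5700.3 at position 4. The part of these tissues in the members' values was not tested. With both second arrays of the tailbud left out, a fit added after the data were seen, limma gave trends of -5.34, -6.80, -6.84 and -4.01 for *vox*, *ved*, *szl* and *bambia* (adjusted p from 6.78e-11 to 5.79e-07). In dissected pieces, fewer cells of a type and less RNA per cell cannot be told apart.

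**Figure D3:**
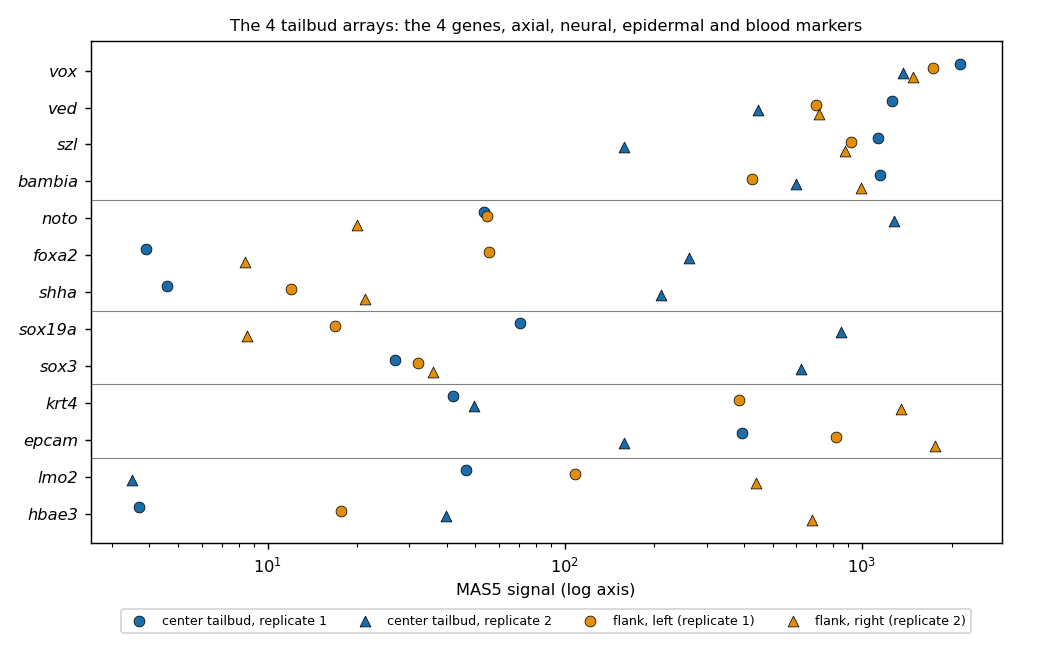
MAS5 signal (log axis) on the 4 tailbud arrays for the 4 genes and for notochord and floor plate (*noto*, *foxa2*, *shha*), neural (*sox19a*, *sox3*), epidermal (*krt4*, *epcam*) and blood (*lmo2*, *hbae3*) genes, with blue for the center and orange for the flank. On replicate 2 of the center *szl* is at 158 and *noto* at 1281.8, against 1135 and 53.3 on replicate 1. The markers drawn are only a part of their lists. On replicate 2 of the center, 4 of 9 notochord and floor plate genes and 3 of 11 neural tube genes were lower. On the right flank, 3 of 10 epidermal genes and 3 of 13 blood, endothelium and intermediate mesoderm genes were lower than on the left. Side and replicate cannot be told apart in the flank.

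Other genes of the pathway went both ways, and more of them fell than rose. The 5 lists of BMP genes held 54 tested genes besides the members, of which 10 fell and 5 rose along the axis by limma and 39 were not called, with a median change of -0.38 against -0.13 for all probe sets. Over all probe sets 6.12% fell and 7.10% rose. The lists were drawn up with earlier results of these data known, and are described by their counts. In the tailbud pieces, 8 of the 54 were higher and 4 lower than at positions 3 to 6, where 3.73% of all probe sets were higher and 4.83% lower.

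Among the ligands, 3 of 10 fell along the axis and 0 rose by limma, with a median of -1.33. Of all probe sets 6.12% fell and 7.10% rose. *bmp2a* fell from 509.8 and 231.7 at position 1 to 1.0 and 2.4 at position 6 (-4.11 ± 0.72, adjusted p = 0.000546), and its flank arrays were at 182.2 and 11.6. *gdf3*, the fish Vg1 gene, whose product signals together with Nodal, fell from 243.5 and 196.8 to 13 and 4.5 (-3.55 ± 0.50, adjusted p = 5.2e-05). *bmp4* was low on all arrays, with 90.6 and 60.1 at position 1 and at most 99.4 anywhere, and its change of -2.40 (adjusted p = 0.0246) was lost in 9 of 22 alternative fits, among them those without either array of position 1 or 6. Not called were *bmp8a*, *gdf6a* and *bmp15*, whose mean signals over the 12 arrays were 45.3, 45.4 and 36.1.

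The receptors went both ways. Of 6 tested, 2 rose and 1 fell by limma, with a median of 0.31. Of all probe sets 7.10% rose and 6.12% fell. The type I receptor gene *bmpr1ba* rose from 29.7 and 11.8 at position 1 to 240.5 and 275.4 at position 6 (3.81 ± 0.45, adjusted p = 5.94e-06). Its relative *bmpr1ab* fell from 170.5 and 295.4 to 60.2 and 82.4 (-1.56 ± 0.29, adjusted p = 0.00104). *rgma*, known in mammals as a BMP co-receptor, rose from 202.3 and 738.5 to 1780.6 and 1692.8 (2.77 ± 0.33, adjusted p = 5.64e-06), but its other tested probe set had -1.06 and was not called. The receptors *bmpr1aa*, *acvr2ba* and *acvr1l* were measured on every array at 210.5 or more and were not called along the trend. *acvr2ba*, a type II receptor, rose from 227.9 and 379.8 at position 5 to 859 and 1443.6 at position 6 (limma, adjusted p = 0.00347), a step at which 0.700% of all probe sets rose. That call was lost in 4 of 24 alternatives, among them those without replicate 1 of position 5 (1.52, adjusted p = 0.109) or replicate 2 of position 6 (1.51, adjusted p = 0.0726) and with its 3 tested probe sets averaged (1.30, adjusted p = 0.24).

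Among 12 tested genes for secreted modulators *szl* was the only one to fall, and *fstl1b*, a follistatin-like gene, the only one to rise. Over all probe sets 6.12% fell and 7.10% rose, and these counts are near those shares. *fstl1b* went from 115.7 and 158.7 at position 1 to 791.5 and 1133.2 at position 6 (2.52 ± 0.26 by limma, adjusted p = 1.2e-06), the opposite course to *szl*. The gene for Chordin, *chrd*, whose protein Sizzled protects, measured 3.8 to 59.7 with a change of -0.41 (95% interval -1.91 to 1.09). Not called with the highest mean levels were *tsku*, *nog1* and *fsta*, at 102, 82.5 and 41.9.

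Of 9 tested genes for SMADs and inhibitors, the member *bambia* and *tob1a* fell and *tob1b* rose. Of all probe sets 6.12% fell and 7.10% rose. *tob1a*, a member of the Tob family of antiproliferative genes, held 463.3 and 303.1 at position 3, when *bambia* was already down to 192.3 and 147.4, and reached 18.3 and 28.0 at position 6 (-4.30 ± 0.47 by limma, adjusted p = 2.32e-06). *tob1b* rose by 1.40 (adjusted p = 0.0364), a call lost in 12 of 24 alternatives and not made for its other probe set. *smad5*, which carries the BMP signal into the nucleus, measured 329.4 to 737.1 with a change of 0.37 (95% interval -0.06 to 0.80, not called). The inhibitory SMAD genes *smad6a* and *smad7* were not called either, with mean signals of 83.3 and 133.

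Of 21 tested target transcription factors, 7 fell and 1 rose by limma, with a median of -0.71. The shares of all probe sets were 6.12% and 7.10%. The members *vox* and *ved*, chosen with their fall known, are included in this count and median. Besides *vox* and *ved* the falling genes were *eve1*, the muscle segment homeobox genes *msx1a*, *msx1b* and *msx3*, and the distal-less gene *dlx5a*. The call of *dlx5a* (-2.46 by limma, adjusted p = 0.00767) was lost in 3 of 23 alternatives, among them the fit without position 2. *eve1*, a posterior homeobox gene, was at 1937.1 and 1322.4 in the center of the tailbud and at 485.8 and 409.5 in its flank. That step was not called. The change of *eve1* along the axis, -7.19 ± 0.44, was the largest of the list (limma, adjusted p = 5.76e-10). *msx1b* went from 656.3 and 692.5 at position 1 to 9.5 and 54.1 at position 6 (-3.93 ± 0.39, adjusted p = 6.76e-07). *msx3* had -3.35 (adjusted p = 1.33e-05), with -0.53 and no call for its other tested probe set. *id1*, a helix-loop-helix gene switched on directly by BMP, did not follow *vox* and *ved*. It measured 1027.5 to 2904.5 on the 12 arrays and was highest at position 6 (change of 0.75 ± 0.22, adjusted p = 0.0289), a call lost in 9 of 24 alternatives, quantile normalization among them. *tfap2a*, *tfap2c* and *tp63*, factors of the epidermis and, for *tfap2a*, the neural crest, were called higher in the flank than in the center of the tailbud, where 1.11% of all probe sets were. *tfap2a* went from 85.0 and 167.4 to 674.4 and 1199.8 (limma, adjusted p = 0.00179), a call lost in 1 of 23 alternatives. *tp63* went from 78.7 and 74 to 320.3 and 527.6 (2.26, adjusted p = 0.00285), which was lost in 3 of 23, among them the fit without both second tailbud arrays (1.87, adjusted p = 0.089) and with its probe sets averaged (0.82, adjusted p = 0.38). *tfap2c*, from 3.9 and 17.7 to 102.8 and 126.6 (2.53, adjusted p = 0.0349), was lost in 15 of 22. At later steps *eve1* fell from position 3 to 4 (-3.63, adjusted p = 0.00178, lost in 3 of 24 alternatives) and *msx1b* from position 5 to 6 (-1.94, adjusted p = 0.0454, lost in 16 of 24). The summed signal of the 10 epidermal genes was 1256.6 and 665.6 in the center, below both flank arrays, and its part in that step was not tested. *id2a* was not called along the trend.

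**Figure D4:**
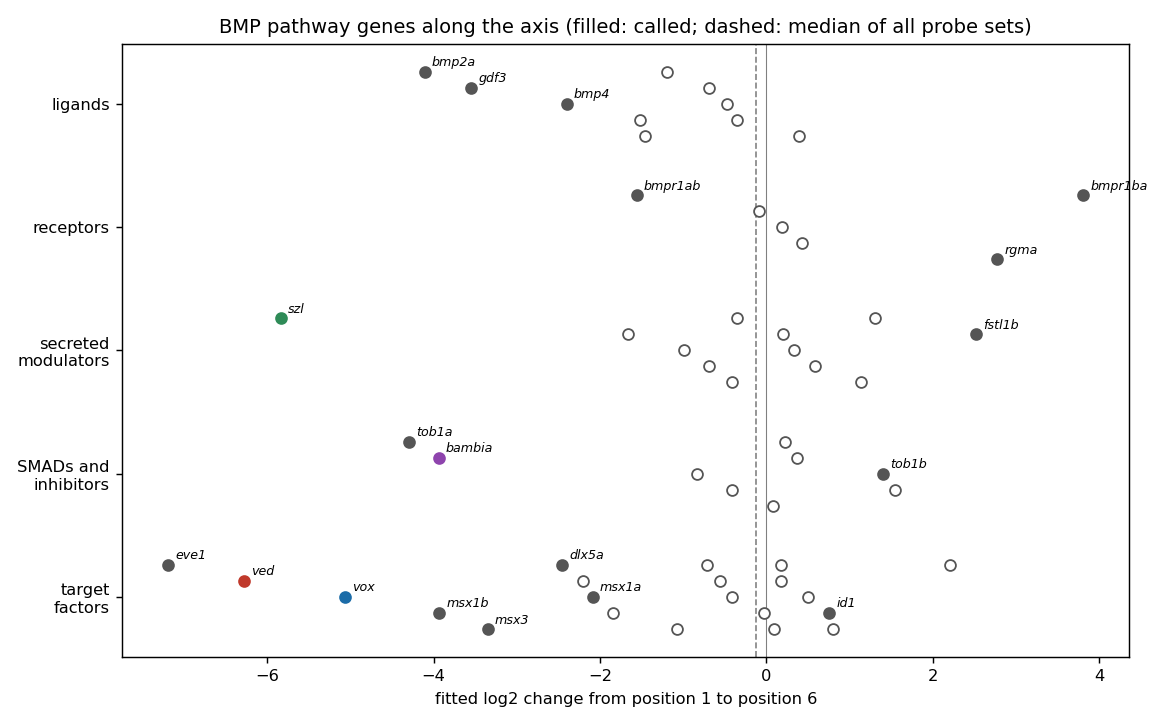
Fitted log2 change from position 1 to position 6 of the tested genes in the 5 BMP lists, by role. Filled points are called, coloured ones are the 4 members, and the dashed line is the median of all probe sets (-0.13). Most genes lie near it, and *bmpr1ba*, *rgma* and *fstl1b* lie to the right. The members lie between -6.28 and -3.94, a range not particular to them. Among the other genes *eve1* (-7.19) lies further left. *tob1a* (-4.30) and *bmp2a* (-4.11) lie within the range, and *msx1b* (-3.93) lies beside it.

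The closest relative of *vox*, the neighbouring gene *vent* in the RefSeq annotation, had 2 probe sets and both were below the filter. The brighter of them measured 107.7 on the left flank array and at most 32.6 elsewhere. Among 7 tested dorsal genes that these factors are known to repress, *noto* fell (-3.36 ± 0.85 by limma, adjusted p = 0.0112) and 6 were not called, with a median of -0.41. The arrays of *noto* at position 1 were those at 53.3 and 1281.8 described above. *gsc*, a homeobox gene of the organizer, measured 2.3 to 68.8. In the list of other TGF-beta signalling genes 0 of 11 were called by limma along the trend, with a median of -0.48. Over all probe sets 6.12% fell and 7.10% rose, with a median of -0.13. For lists this short, the counts of both are near those shares.

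The genes whose log2 values over the 12 arrays were most like each member were found by Pearson's r, as a description that rests on a shared fall along the axis. The search covered 5037 of the 10851 tested probe sets. These had a gene name other than a placeholder and a highest position mean above 97.8, the median of the mean signals of tested probe sets. For *vox* they were *tbx16*, a T-box factor needed to make paraxial mesoderm (r = 0.98), the Hox gene *hoxc11a* (r = 0.957) and *ror2*, a receptor for Wnt ligands (r = 0.954). *tbx16* went from 1942 ± 584 (SD, n = 2) at position 1 to 1334 ± 202 and 202 ± 18.7 at positions 3 and 4, while *vox* was at 841 ± 64.3 and 385 ± 62.6 there. For *ved* they were *eve1* (r = 0.968), the phosphorylase kinase subunit *phkg2* (r = 0.961) and the caveolin *cav1* (r = 0.952), all 3 of which were low from the center PSM onward. For *szl* the first was *bambia* (r = 0.924), followed by *swi5* (r = 0.914), whose trend was not called (adjusted p = 0.0857), and *dlx5a* (r = 0.911), which like *szl* had its highest mean in the flank. For *bambia* they were *wls*, which is needed for the release of Wnt ligands (r = 0.934), *arpp19a* (r = 0.928) and *szl* (r = 0.924). By Spearman's rho the 3 closest genes were others for *vox* and *szl*, while *eve1* was again among those of *ved*, and *wls* and *szl* among those of *bambia*. For *szl*, *bambia* then came 4th (rho = 0.93), with the same rounded value as the 3rd gene. For *vox*, *tbx16* came 5th (rho = 0.951).

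**Figure D5:**
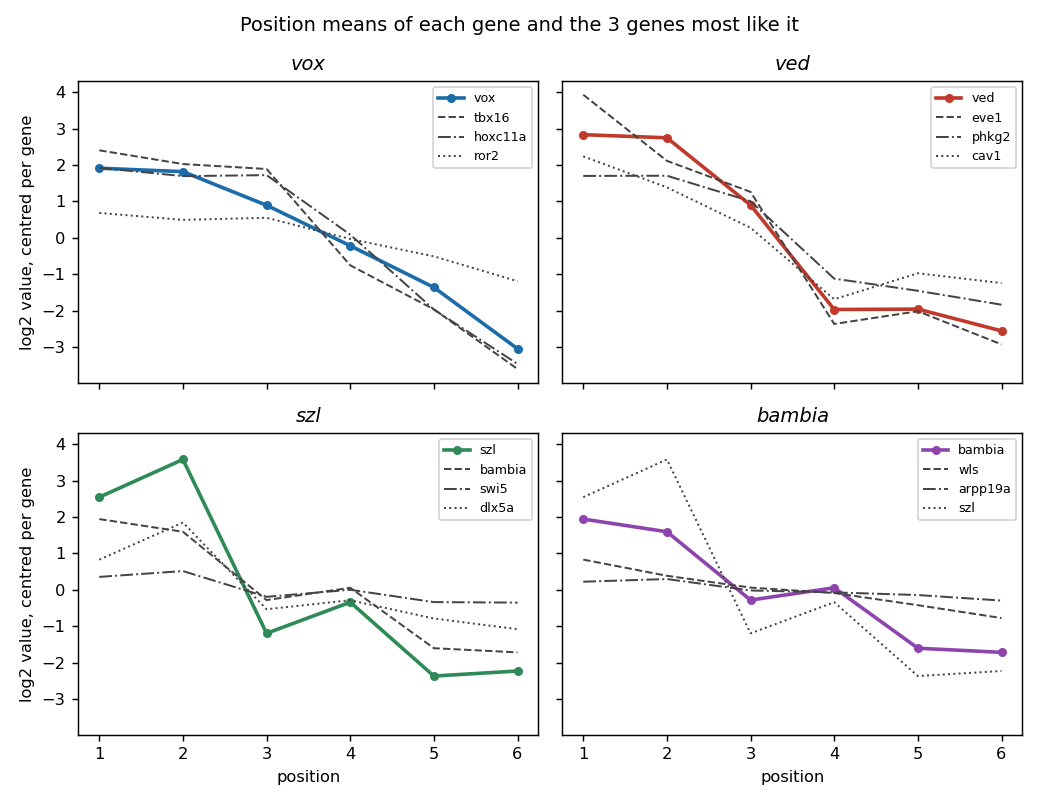
Position means of the log2 values, centred per gene, for each member (thick line) and the 3 genes most like it by Pearson's r. From position 3 to position 4 *tbx16* (r = 0.98) drops further than *vox*. The mean of *eve1* (r = 0.968) is lower at position 2 than at position 1, a difference that was not called. The means of *ved* at positions 1 and 2 are close.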

How the data were processed

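The deposited table holds 1 intensity per probe set and array, the MAS5 signal on a linear scale, per the submitters' processing notes (version not given in the sources used here). The authors' scaling gave each array a mean signal of 150.03 to 150.04 after trimming 2% at each end, as checked on the values. RNA was labelled with biotin for an Affymetrix array, per the labels' protocols. Of 15617 probe sets 115 controls were left out. Probe sets whose mean of log2(signal + 12.2), the offset being the 25th percentile of all values, lay below the 30th percentile were left out (4651). A linear model with 6 position means was fitted to the others with limma 3.58.1 in R 4.3.3 with intensity-dependent variances (6 residual and 12.8 prior degrees of freedom). Tests were two-sided, with Benjamini-Hochberg adjustment per comparison over 10851 probe sets. The 12 arrays limit the precision, and p-values measure the spread between samples that the labels call biological replicates.

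The members, the lists and the comparisons were chosen with earlier results of these data known. Where a gene had several probe sets, the one with the highest mean stands for it. Named are the members, the 3 genes most like each, the genes of each BMP list called along the trend, between the ends or at a step, and up to 3 uncalled ones of highest mean, and marker genes. List genes called at a step alone, and marker genes that went against their list, were added after their values were seen. Gene symbols come from the platform annotation, updated through RefSeq gene identifiers. Alternatives changed the normalization, offset, filter, variances, array weights, replicate block, arrays and probe set averaging. Promoter motifs were not analysed here.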

Additional observations from a re-analysis of the deposited data

How the results depend on the processing

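In all 368 values of the members' trend, end-to-end, tailbud and F tests under the alternatives, the direction and the call were kept. Leaving out each array in turn, the trend ranged from -6.82 to -4.86 for *szl*. The called steps were less stable. *szl* from position 2 to 3 was not called with no offset (-5.76) or with variances free of an intensity trend (-4.78, adjusted p = 0.16), and ranged from -5.68 to -3.88 when an array was left out. *ved* from position 3 to 4 was not called with no offset (-3.65), without the intensity trend, with array weights or without position 2 (-2.87 in each), and ranged from -3.08 to -2.66. *vox* from position 5 to 6 was not called under median centring (-1.18) or without the intensity trend (-1.69), and ranged from -1.94 to -1.44. *bambia* was called from position 4 to 5 (-1.66) in the added fit without both second tailbud arrays. Its step from 2 to 3 ranged from -2.48 to -1.27 and was called in 1 of 22 alternatives.

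Without the intensity trend the probe sets called were 839 for the trend (1434 as reported), 527 between the ends (1082), 450 for the tailbud (929) and 419 by the F test (1210), and 0 to 14 at the steps. Under median centring the tailbud count was 606. Leaving out an array gave 607 to 1229 between the ends and 607 to 1038 for the tailbud. Over the 5 BMP lists, here with the members counted, 5 genes rose and 14 fell along the trend with the settings used above. The rising count was 8 under median centring, 3 without the intensity trend, 3 with 1 value per gene and 3 to 6 without single arrays. The falling count was 9 with the filter at the 60th percentile. Between the ends 4 rose with the settings used above, 8 under median centring or array weights, 7 with the replicate block and 2 without the intensity trend. In the tailbud 4 were lower as reported and 7 in the added fit. The median trend of all probe sets was 0.01 under quantile normalization and 0.24 under median centring, where *vox* had -4.77 and -4.70. Of the 3 genes most like each member, Spearman's rho kept 0 for *vox*, 1 for *ved*, 0 for *szl* and 2 for *bambia*. Correlations of the replicate differences between positions ran from -0.071 to 0.085. Each difference rests on 2 arrays, so they cannot show whether samples of the same replicate number belong together. The replicate block changed no call of a member: *szl* from position 2 to 3 had adjusted p = 0.00196 with it by limma, and 1506 probe sets followed the trend. With the block the SE of the trend was 0.54 for *szl* and 0.43 for *ved*, against 0.61 and 0.48 without it. Each position rests on 2 arrays, and low signals have no detection call.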
